A study of Homo sapiens with 12 samples.

Results

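The genes described here are 9 genes of the retinoid and vitamin D pathways in U2OS, an established human osteosarcoma line. They are DHRS3, ALDH1A3, CRABP2, RARA, RARB, RARG, RXRA, VDR and CYP24A1, out of 58735 genes counted. The set was chosen by measured values: DHRS3 was higher and CYP24A1 lower with PNKP1i alone than with DMSO, and the receptors, binding protein and synthetic enzyme around them were added to follow the pathway over the 4 groups. Of the 9, 7 passed the filter on low counts and were tested, and RARB and ALDH1A3 did not pass it. The cells had been given both compounds, TH10785 alone, PNKP1i alone, or the solvent DMSO, each compound at 10 µM and for 24 h, with 3 libraries a group. OGG1, the glycosylase that cuts oxidised guanine out of DNA, is activated by TH10785, a small molecule that the series record spells TH10587. For PNKP1i, an inhibitor, no structure is given by the labels. All groups are of the same line. Whether replicate libraries are separate cultures is not said in the labels, so each p-value reflects the spread among these libraries alone, and that spread may be technical.

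Retinol enters cells, is oxidised to retinal and then irreversibly to retinoic acid, which CRABP proteins carry to the nucleus. There it binds the retinoic acid receptors (RARs), which sit on DNA as heterodimers with retinoid X receptors (RXRs) and switch on genes that include those for RARB, CRABP2 and the retinal reductase DHRS3. The vitamin D receptor also pairs with RXR, and its best known target is CYP24A1, the enzyme that breaks down active vitamin D, so both pathways draw on the same partner receptor. Both pathways are active in cells of the bone lineage, where they act on differentiation.

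RAR-RXR and VDR-RXR pairs bind direct repeats of a short half-site. The forms searched were AGGTCA, which is the common one, together with AGTTCA, in addition GGTTCA, and finally GGGTCA. They were searched on both strands in RefSeq windows of 300 bases around gene starts (250 bases before and 50 after, build GRCh38.p14), alone and as direct repeats spaced by 2, 3 or 5 bases. The half-sites of a repeat do not overlap. Windows were matched for 7 of the 9 members, 15 windows in all; VDR and CYP24A1 were not searched. A repeat spaced by 5 bases was found in 1 of them, at a RARB start, and in 31 of all 35116 windows (0.0883%). None of these 15 windows held a repeat spaced by 3 or by 2, against 0.074% and 0.0399% of all windows. At least 1 half-site stood in 8 of the 15 member windows (53.3%), against 38.6% of all windows. Below are the 250 bases before that RARB start (chr3:25428013-25428262, plus strand), shown because RARB carries the repeat, and the 250 bases before a DHRS3 start (chr1:12616790-12617039, minus strand), shown because the higher DHRS3 level with PNKP1i was the value that opened the choice of genes. Capitals mark half-sites.
RARB: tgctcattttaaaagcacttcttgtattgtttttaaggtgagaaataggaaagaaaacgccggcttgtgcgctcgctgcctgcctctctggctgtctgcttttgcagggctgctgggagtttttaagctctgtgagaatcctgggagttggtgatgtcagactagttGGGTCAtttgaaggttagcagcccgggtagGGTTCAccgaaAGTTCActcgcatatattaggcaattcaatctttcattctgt
DHRS3: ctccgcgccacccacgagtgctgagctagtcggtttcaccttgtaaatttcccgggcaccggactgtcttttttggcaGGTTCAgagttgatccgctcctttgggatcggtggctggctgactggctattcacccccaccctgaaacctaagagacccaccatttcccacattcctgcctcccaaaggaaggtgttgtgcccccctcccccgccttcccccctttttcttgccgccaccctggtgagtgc
The RARB repeat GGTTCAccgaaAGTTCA starts 53 bases before the gene start. The DHRS3 stretch holds a single half-site and no repeat. Other DHRS3 start windows were searched too: the one at chr1:12618161-12618460 held 0 half-sites and the one at chr1:12596564-12596863 held 1. These matches are descriptions of the sequence and carry no measurement of binding.

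Depth ran from 16225339 to 21546369 counts per library. The library TH10785 replicate 3 stood apart from the rest on the first 2 principal components (-54.5 and -45.9, where the other TH10785 libraries lay at -2.53 and -10.1 on the first), and results that use the TH10785 libraries are also given without it. Libraries also differed in their trend with GC content, and values with an offset for GC content and transcript length are given beside the members they move. Of 11 osteoblast and mesenchymal marker genes, 6 averaged at least 1 CPM (the usual library-scaled count unit, here with TMM scaling), with COL1A1, SPARC and VIM among the highest, while IBSP and TWIST1 were at 0 in every library. The summed level of these markers was 2147 to 2638 CPM with both compounds, 3948 to 4591 CPM with TH10785, 4317 to 4443 CPM with PNKP1i and 4134 to 4935 CPM with DMSO, so it was lower in the libraries in which most members were lower. Of 6 epithelial markers 4 averaged at least 1 CPM, and their sum was 1201 to 1482 CPM with both compounds, 2405 to 3678 CPM with TH10785, 1964 to 2469 CPM with PNKP1i and 2015 to 2345 CPM with DMSO. The 5 blood markers summed to at most 0.366 CPM in any library, and the 4 endothelial markers, 2 of which averaged at least 1 CPM, summed to 1.79 to 3.30 CPM with both compounds, 4.66 to 7.99 CPM with TH10785, 4.29 to 5.65 CPM with PNKP1i and 4.50 to 4.85 CPM with DMSO. The part of cell state in the members' values was not tested, and in bulk RNA fewer cells of a type and less RNA per cell cannot be told apart.

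The comparison that asks the question of PNKP1i again in libraries the choice of genes did not use is both compounds against TH10785 alone. In it, DHRS3 rose and CRABP2, RARG, RXRA and CYP24A1 fell, while RARA and VDR were not called (edgeR quasi-likelihood test, Benjamini-Hochberg adjusted p under 0.05 over all 17290 genes tested). That is 1 of 7 tested members higher and 4 lower, beside 22.7% of all tested genes higher and 19.7% lower, so a change as such was common in this comparison. The spread in this fit is estimated over all 12 libraries, those of the choice included. A fit of the compared groups alone called the same 5, with adjusted p by edgeR of 0.00488 for DHRS3, 0.00297 for CYP24A1 and up to 0.0142 (RXRA). For the same 5 members the 3 libraries of both compounds did not overlap the 3 of TH10785, as was so for 52.2% of all tested genes. The median log2 fold change of the 7 was -0.62, beside 0.02 over all genes. Against PNKP1i alone, cells given both compounds had 5 of 7 members lower (CRABP2, RARA, RARG, RXRA and CYP24A1) and 0 higher, beside 21.5% of all genes lower and 24.4% higher. At an unadjusted p under 0.05 that comparison has 6 of 7, the added one being VDR with a positive log2 fold change. Of all 17290 genes, 9179 were under that threshold there. Against DMSO, both compounds had DHRS3 higher and the same 5 genes lower as against PNKP1i, beside 21.3% of all genes higher and 19.7% lower. These last comparisons share PNKP1i or DMSO libraries with the one that chose the genes.

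With TH10785 alone against DMSO, 0 of 7 members were called by edgeR, and 0 by DESeq2, limma-voom and limma-trend. At an unadjusted p under 0.05 there was 1, CYP24A1. All tested genes gave 0.515% higher and 0.0463% lower in that comparison, so calls were rare throughout. For PNKP1i alone against DMSO no test of the members is given, because that contrast chose them. In it the groups did not overlap for 3 of the 7, DHRS3 above and VDR and CYP24A1 below, beside 25.9% of all tested genes, and nothing is read from that count.

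**Figure D1:**
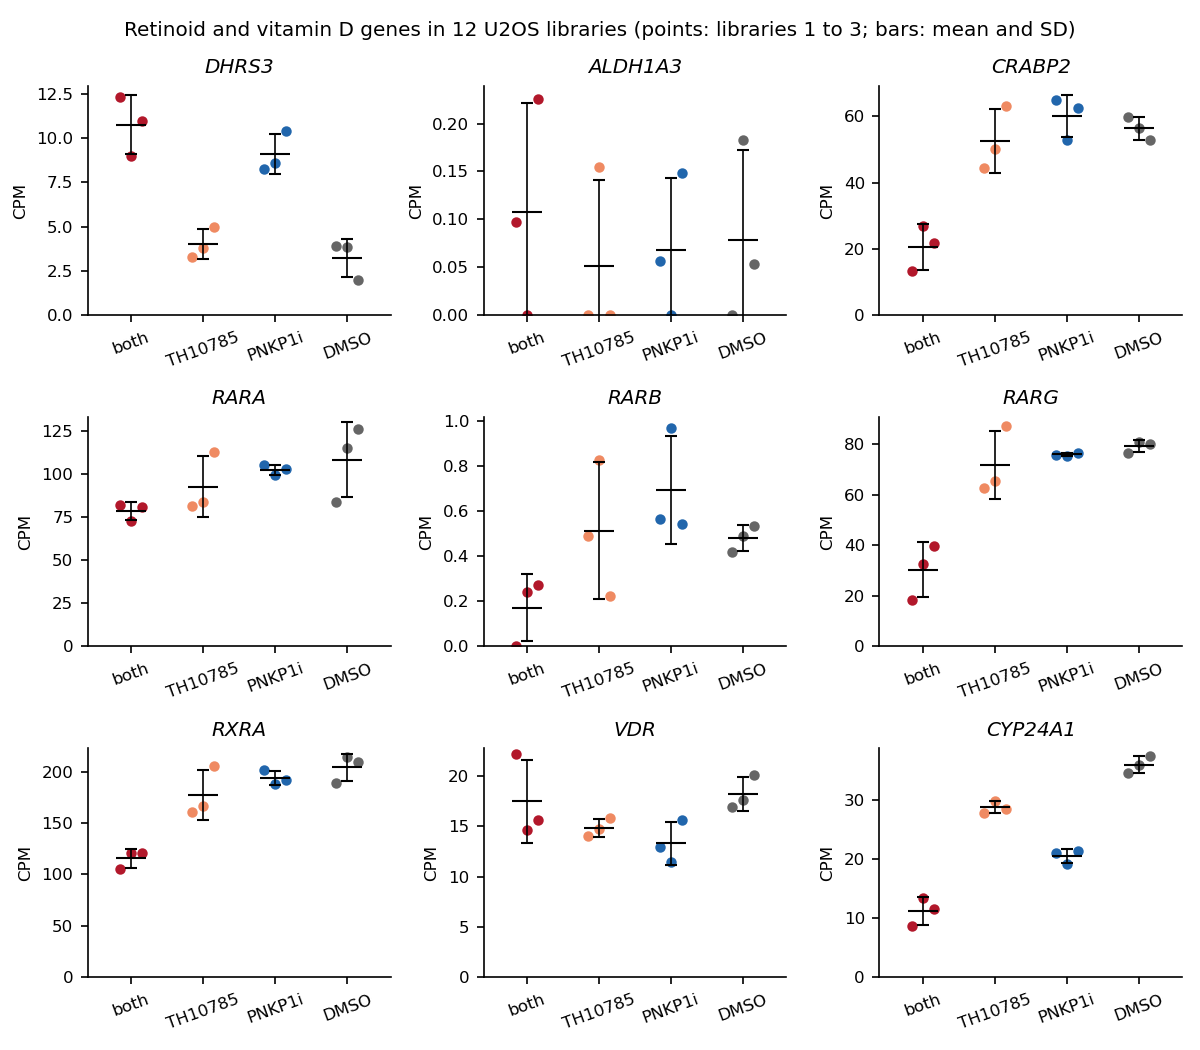
Level in CPM (vertical axis, from 0) of each of the 9 genes in the 12 libraries, grouped as both compounds, TH10785, PNKP1i and DMSO; points are libraries 1 to 3, the black bars give the mean and SD of 3, and SD bars are clipped at 0. DHRS3 is high in both groups that had PNKP1i, CYP24A1 is lowest with both compounds, and CRABP2, RARG and RXRA are low with both compounds only. The differences of DHRS3 and CYP24A1 between PNKP1i and DMSO were conditions of the choice of genes.

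Levels of different genes can be set beside each other per kilobase of exon. With both compounds the order of the mean levels of the tested members was CRABP2 (18.8 CPM per kb), RARA (16.6), RXRA (10.4), RARG (5.90), DHRS3 (3.55), VDR (3.07) and CYP24A1 (2.82). In DMSO libraries the order was CRABP2 (51.2 CPM per kb), RARA (22.9), RXRA (18.4), RARG (15.4), CYP24A1 (9.04), VDR (3.21) and DHRS3 (1.07), with RARB (0.13) and ALDH1A3 (0.0137) far below. By these means CYP24A1 was the lowest of the 7 with both compounds, and DHRS3 the lowest of the 7 in DMSO libraries. With both compounds the means of CYP24A1, VDR and DHRS3 lay close together, and their order differed between libraries. The DHRS3 level in DMSO libraries was also part of the choice of that gene.

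DHRS3 (ENSG00000162496, chr1:12567910-12617731, minus strand, GRCh38) encodes a retinal reductase, which returns retinal to retinol and so limits how much becomes retinoic acid. It measured 12.3, 9.01 and 11 CPM with both compounds, 3.31, 3.78 and 4.99 CPM with TH10785, 8.29, 8.61 and 10.4 CPM with PNKP1i, and 3.89, 3.85 and 1.98 CPM with DMSO. All 6 libraries that had PNKP1i, alone or in the pair, lay above all 6 that did not. In that order, the place of PNKP1i alone above DMSO was a condition of the choice of the gene. Against TH10785, DHRS3 was 2.67-fold higher with both compounds (log2 fold change 1.42, SE 0.24, adjusted p = 0.000404 by edgeR), and 1.60 on the log2 scale without TH10785 replicate 3. That is the 560th highest log2 fold change of the 17290 genes. Against DMSO, both compounds gave 1.74 (SE 0.25, adjusted p = 6.97e-05), a comparison that reuses DMSO libraries by which the gene was chosen. PNKP1i alone against DMSO, the contrast that chose the gene, had a log2 fold change of 1.5 (SE 0.25), the 42nd highest of all genes, given as a description. TH10785 alone gave 0.32 against DMSO (SE 0.26, adjusted p = 0.606), with overlapping groups, and it reuses those DMSO libraries too.

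Adding TH10785 to PNKP1i moved DHRS3 by 0.24 on the log2 scale (95% interval -0.24 to 0.72, adjusted p = 0.402 by edgeR). With GC offsets this difference was 0.52 with an adjusted p of 0.0446, the only setting of 22 that called it. The difference between the effect of PNKP1i on top of TH10785 and its effect alone was -0.08 (SE 0.34), a value given with no test because it holds the contrast that chose the gene. The counts behind these levels were low, 186 to 254 with both compounds and 37 to 65 in DMSO libraries, and they carry counting error on top of the spread between libraries.

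ALDH1A3 (ENSG00000184254) encodes a retinal dehydrogenase, one of the enzymes that make retinoic acid. It had 2, 0 and 5 counts with both compounds, 0, 3 and 0 in TH10785 libraries, 1, 0 and 3 in PNKP1i libraries and 0, 3 and 1 in DMSO libraries. It was at or near 0 in each group, and no difference was detectable at this depth. An antisense gene that overlaps it, LOC101927751, had 465 counts over the 12 libraries against 18 for ALDH1A3, and whether the authors counted by strand is not said in the labels.

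CRABP2 (ENSG00000143320, chr1:156699606-156705816, minus strand) encodes the protein that delivers retinoic acid to nuclear RARs. It measured 13.2, 26.9 and 21.8 CPM with both compounds, 44.4, 50.2 and 63.1 CPM with TH10785, 64.8, 52.7 and 62.5 CPM with PNKP1i, and 59.6, 56.5 and 52.8 CPM with DMSO. The 3 libraries with both compounds lay below all 9 others, and the other 3 groups overlapped each other. CRABP2 was 2.55-fold lower with both compounds than with TH10785 (log2 fold change -1.35, SE 0.20, adjusted p = 0.000143 by edgeR). Without TH10785 replicate 3 that value was -1.20. Its log2 fold change was -1.54 against PNKP1i (adjusted p = 6.7e-05) and -1.45 against DMSO (adjusted p = 5.31e-05). Each compound alone left small values against DMSO, -0.10 (SE 0.19, adjusted p = 0.861) with TH10785 and 0.09 (SE 0.19, no test) with PNKP1i.

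The 3 RAR genes encode the receptors themselves, and they did not move as 1 group. RARG (ENSG00000172819, chr12:53210567-53232980, minus strand) measured 18.3, 32.7 and 39.8 CPM with both compounds, 62.6, 65.3 and 87.2 CPM with TH10785, 75.8, 75.3 and 76.5 CPM with PNKP1i, and 76.3, 80.8 and 79.9 CPM with DMSO. As with CRABP2, the libraries with both compounds lay below all others. RARG was 2.37-fold lower with both compounds than with TH10785 (log2 fold change -1.24, SE 0.20, adjusted p = 0.000269 by edgeR), -1.08 without TH10785 replicate 3 and -0.98 without replicate 1 of both compounds, which is the lowest library. Against PNKP1i it was -1.32 (adjusted p = 0.000165) and against DMSO -1.38 (adjusted p = 7.94e-05).

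RARA (ENSG00000131759, chr17:40309192-40357643, plus strand), the receptor of widest expression, measured 82.0, 72.5 and 80.8 CPM with both compounds, 81.3, 83.5 and 113 CPM with TH10785, 105, 99.3 and 103 CPM with PNKP1i, and 83.8, 115 and 126 CPM with DMSO. Its groups lay much closer together than those of RARG, and both compounds overlapped TH10785. Against TH10785 the log2 fold change was -0.24 (SE 0.15, 95% interval -0.55 to 0.08, adjusted p = 0.211 by edgeR), and -0.07 without TH10785 replicate 3. RARA was lower against PNKP1i (-0.39, adjusted p = 0.0433) and against DMSO (-0.47, adjusted p = 0.0195), but with GC offsets both calls ended (0.06 with adjusted p = 0.718, and -0.06 with adjusted p = 0.719). The call against PNKP1i also ended in 7 of the fits that left out 1 library: DMSO replicate 2 and each library of PNKP1i and of both compounds. The call against DMSO ended without DMSO replicate 2 or 3 or without replicate 2 of both compounds. The antisense gene RARA-AS1 overlaps RARA and had 2.44% of its counts.

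RARB (ENSG00000077092), the receptor gene that carries the repeat shown above, was close to silent. It had 0, 5 and 6 counts with both compounds, 8, 16 and 4 in TH10785 libraries, 10, 18 and 11 in PNKP1i libraries and 7, 8 and 10 in DMSO libraries. The libraries with both compounds lay below those of PNKP1i and of DMSO and overlapped those of TH10785. In the fit without a filter on low counts the log2 fold change of both compounds was -1.54 (SE 0.66, adjusted p = 0.0842 by edgeR) against TH10785, -1.95 (SE 0.64, adjusted p = 0.0126) against PNKP1i and -1.42 (SE 0.67, adjusted p = 0.133) against DMSO. TOP2B overlaps RARB on the opposite strand with 8207 counts against 103, so reads of the 2 genes may be mixed in these values.

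**Figure D2:**
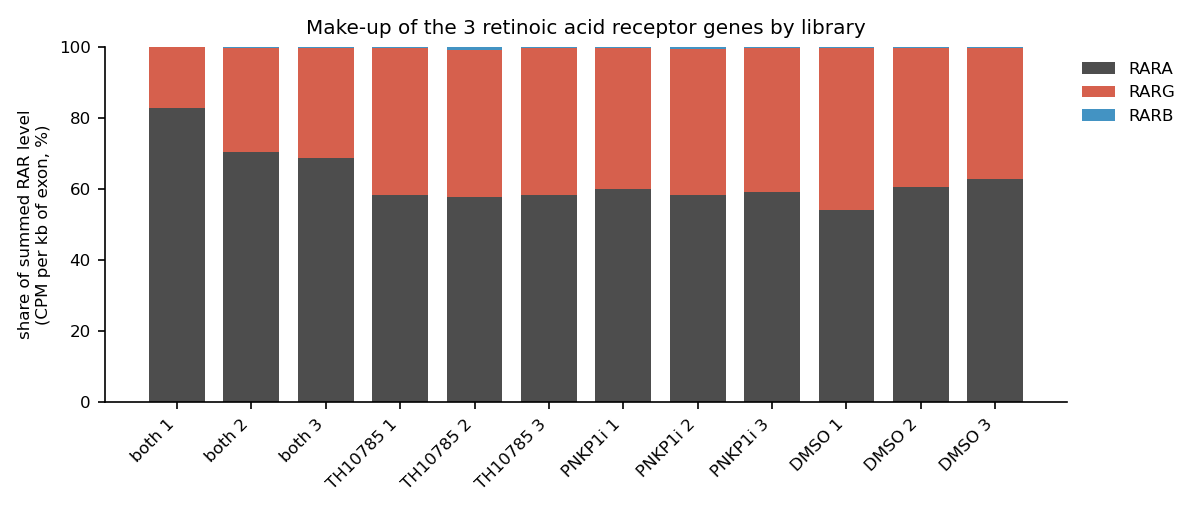
Share (%) of RARA, RARG and RARB in their summed level (CPM per kb of exon) in each of the 12 libraries, in the order both compounds, TH10785, PNKP1i and DMSO. RARA takes 68.6% to 82.9% with both compounds and 54.1% to 62.9% in the other 9 libraries, and RARB is barely visible.

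In these libraries, RARA held a larger share of the summed RAR RNA with both compounds than in the other 9. RARA made up 82.9%, 70.4% and 68.6% of the summed RAR level per kilobase with both compounds, 58.2%, 57.6% and 58.2% in TH10785 libraries, 59.9%, 58.4% and 59.0% in PNKP1i libraries and 54.1%, 60.5% and 62.9% in DMSO libraries. The ratio of RARG to RARA counts, which does not depend on library scaling, was 0.224, 0.451 and 0.492 with both compounds, 0.771, 0.782 and 0.775 in TH10785 libraries, 0.718, 0.759 and 0.746 in PNKP1i libraries and 0.911, 0.702 and 0.633 in DMSO libraries. All 3 libraries with both compounds lay below the other 9. The log2 ratio differed by -1.08 from TH10785, -1.01 from PNKP1i and -1.01 from DMSO. Each exact two-sided permutation test gave p = 0.1, the smallest that 3 against 3 libraries allow, and 0.1 after adjustment over the 6 ratio tests run. The ratios were picked after their values had been seen.

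RXRA (ENSG00000186350, chr9:134317098-134440585, plus strand) encodes the partner that RARs and VDR share. It measured 105, 121 and 120.5 CPM with both compounds, 161, 166 and 205 CPM with TH10785, 201, 188 and 192 CPM with PNKP1i, and 189, 214 and 209 CPM with DMSO. The libraries with both compounds lay below all others. RXRA was 1.53-fold lower with both compounds than with TH10785 (log2 fold change -0.62, SE 0.12, adjusted p = 0.000863 by edgeR), and -0.49 on the log2 scale without TH10785 replicate 3. It was -0.74 (adjusted p = 0.000208) against PNKP1i and -0.82 (adjusted p = 7.6e-05) against DMSO. With GC offsets these 3 values were -0.30, -0.37 and -0.41, with adjusted p of 0.011, 0.00342 and 0.00132. RXRB, the related partner gene, was not called against TH10785 (-0.16, SE 0.13, adjusted p = 0.365), and RXRG had 0 CPM in every library.

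VDR (ENSG00000111424, chr12:47841537-47943048, minus strand), the vitamin D receptor, measured 22.2, 14.6 and 15.6 CPM with both compounds, 14, 14.7 and 15.8 CPM with TH10785, 12.9, 11.4 and 15.6 CPM with PNKP1i, and 16.9, 17.6 and 20.1 CPM with DMSO. The libraries of each compound alone lay below those of DMSO, while replicate 1 of both compounds was the highest of the 12. No comparison called VDR: both compounds gave 0.23 (95% interval -0.14 to 0.60, adjusted p = 0.306 by edgeR) against TH10785, 0.39 (0.02 to 0.77, adjusted p = 0.0794) against PNKP1i and -0.06 (-0.43 to 0.31, adjusted p = 0.796) against DMSO. The value against PNKP1i was called with GC offsets (0.61, adjusted p = 0.0058) and without replicate 2 of both compounds (0.51, adjusted p = 0.0378). Against TH10785 the value was 0.02 without replicate 1 of both compounds and 0.28 without TH10785 replicate 3. TH10785 alone gave -0.30 against DMSO (SE 0.18, adjusted p = 0.472), and PNKP1i alone -0.46 (SE 0.18, no test).

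CYP24A1 (ENSG00000019186, chr20:54153449-54173973, minus strand), the 24-hydroxylase that inactivates vitamin D, measured 8.71, 13.4 and 11.5 CPM with both compounds, 27.8, 29.8 and 28.5 CPM with TH10785, 21.0, 19.1 and 21.3 CPM with PNKP1i, and 34.5, 35.9 and 37.3 CPM with DMSO. No groups overlapped: the libraries with both compounds were lowest, then those with PNKP1i, then those with TH10785, and those with DMSO were highest. The place of PNKP1i below DMSO in that order was a condition of the choice of the gene. CYP24A1 was 2.56-fold lower with both compounds than with TH10785 (log2 fold change -1.36, SE 0.15, adjusted p = 1.51e-05 by edgeR), and -1.36 too without TH10785 replicate 3. Its log2 fold change was -0.87 (adjusted p = 0.000379) against PNKP1i and -1.68 (adjusted p = 2e-06) against DMSO, where it stood 293rd from the lowest of all genes. These comparisons reuse libraries by which the gene was chosen, so their p-values and the rank are not independent of that choice. TH10785 alone gave -0.32 against DMSO (SE 0.15, adjusted p = 0.326), which was not called although its libraries lay below those of DMSO. That value and that order also reuse DMSO libraries by which the gene was chosen, so they are not independent of the choice. PNKP1i alone gave -0.81 (SE 0.15), the contrast that chose the gene, and the value on top of TH10785 differed from it by -0.55 (SE 0.21, no test).

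The count ratio of CYP24A1 to VDR was 0.393, 0.917 and 0.738 with both compounds, 1.99, 2.02 and 1.80 in TH10785 libraries, 1.63, 1.68 and 1.37 in PNKP1i libraries and 2.04, 2.04 and 1.85 in DMSO libraries. Every library with both compounds was below 1 CYP24A1 count per VDR count, and every other library was above 1. The log2 ratio differed by -1.59 from TH10785, by -1.27 from PNKP1i and by -1.62 from DMSO. Each had an exact two-sided permutation p of 0.1, the smallest possible, and 0.1 adjusted over the 6 ratio tests. The values against PNKP1i and DMSO use libraries by which CYP24A1 was chosen, so they are not independent of that choice.

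**Figure D3:**
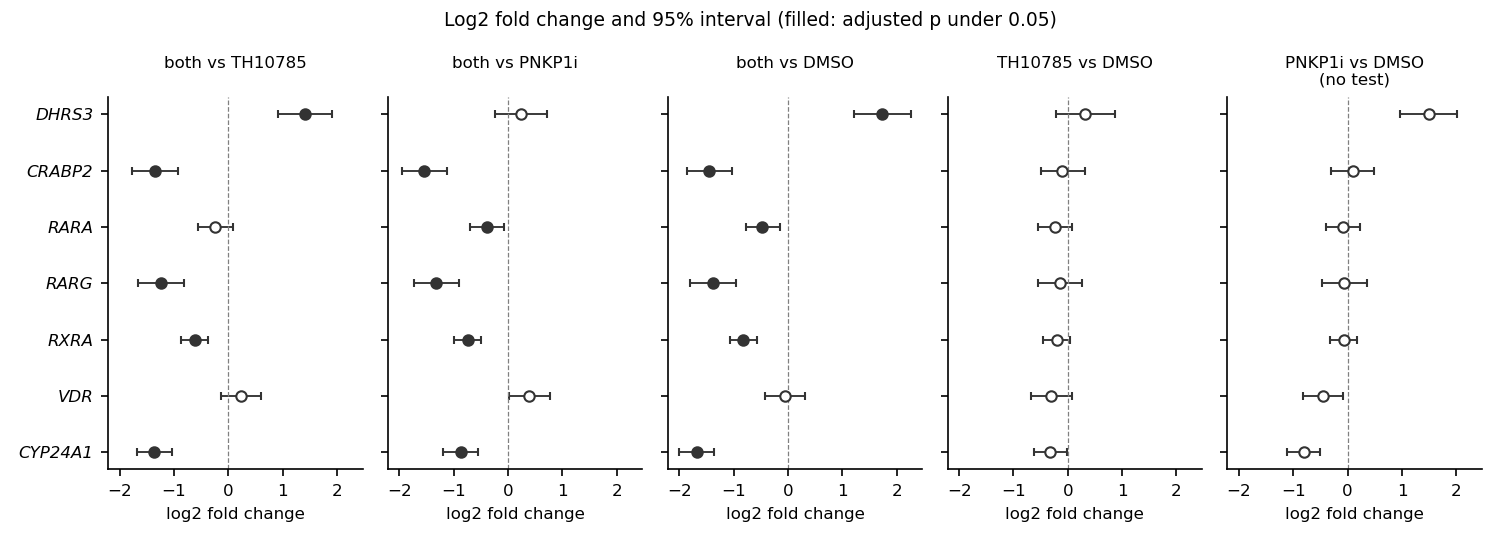
Log2 fold change (horizontal axis) with its 95% interval for the 7 tested genes in 5 comparisons, filled where the adjusted p was under 0.05; the panel of PNKP1i against DMSO carries no test. CRABP2, RARG, RXRA and CYP24A1 lie left of 0 in the 3 panels of both compounds, and DHRS3 lies right of 0 in each panel, with an interval that spans 0 for both compounds against PNKP1i and for TH10785 against DMSO.

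The interaction term, which is the effect of PNKP1i on top of TH10785 minus its effect alone, sets the members apart by size, as a description with no test. It was -1.44 (SE 0.27) for CRABP2, -1.19 (SE 0.28) for RARG and -0.54 (SE 0.16) for RXRA, so these genes were lower with the pair than the sum of the single values. It was -0.55 (SE 0.21) for CYP24A1, 0.69 (SE 0.25) for VDR, -0.16 (SE 0.21) for RARA and -0.08 (SE 0.34) for DHRS3. Of the 7 tested members, CRABP2 had the largest term in this fit and DHRS3 the smallest. The DHRS3 term had the widest SE of the 7, so its place beside RARA is not settled by these values. The term also holds the contrast that chose DHRS3 and CYP24A1. RARB, at its low counts, had -2.08 (SE 0.87) in the fit without a filter.

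Genes of high GC content were lower with both compounds across the transcriptome, and most members are GC-rich. Against TH10785 the median log2 fold change was 0.73 for genes under 40% GC, 0.41 from 40% to 45%, 0.05 from 45% to 50%, -0.17 from 50% to 55%, -0.31 from 55% to 60% and -0.38 above 60%. RARA has 63.0% GC, RXRA 60.6%, RARG 60%, CRABP2 and DHRS3 55.8%, VDR 54.2% and CYP24A1 45.9%. With offsets for GC content and length, the log2 fold change against TH10785 was 1.67 for DHRS3, -1.13 for CRABP2, -0.89 for RARG, -0.30 for RXRA and -1.50 for CYP24A1, and all 5 were still called. RARA turned to 0.16 (adjusted p = 0.279), and VDR moved to 0.40 (adjusted p = 0.0571). CYP24A1 and DHRS3 moved away from 0 with the offsets, and CRABP2, RARG and RXRA moved towards it.

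**Figure D4:**
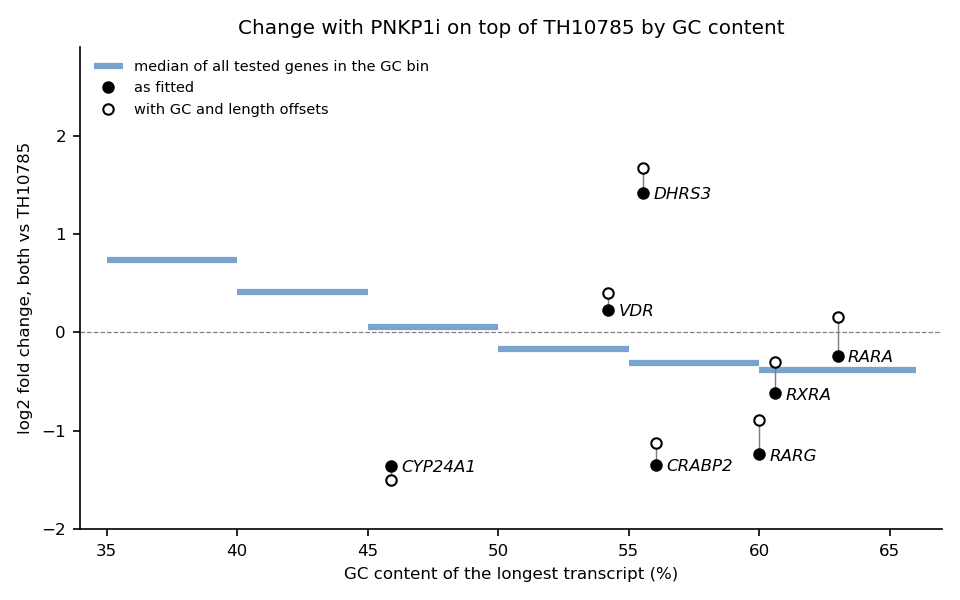
Log2 fold change of both compounds against TH10785 (vertical axis) by GC content in percent (horizontal axis) for the 7 tested genes, as fitted (filled) and with GC and length offsets (open); blue bars are medians of all tested genes in bins of GC content, the outer bins drawn at 35% and 66%, and DHRS3 and CRABP2 are drawn slightly apart. CYP24A1 and DHRS3 lie far from the bar of their bin, and RARA and RXRA lie nearest to theirs.

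Over the 12 libraries, the genes whose log2 CPM was most like that of DHRS3 were DNASE2, WDR45, TSC22D3 and HEXA (Pearson r = 0.94 each) and PSPH (0.93). For CYP24A1 they were KLHDC7A (0.97) and WNT11, ADAM19, TLN2 and LRRC15 (0.96 each). Among the members, CYP24A1 had r = 0.87 with RARG, 0.86 with RXRA, 0.85 with CRABP2, 0.56 with RARA, -0.05 with VDR and -0.87 with DHRS3. DHRS3 and CYP24A1 were chosen for opposite moves between PNKP1i and DMSO libraries, so the choice itself favoured a negative coefficient between them. These libraries share 4 treatments and their scaling, so the coefficients describe a common order of groups and carry no p.

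A list of 124 further genes of both pathways was followed in the same fit, and 83 passed the filter on low counts. Against TH10785, both compounds had 12 of the 83 higher and 22 lower (14.5% and 26.5%), with a median log2 fold change of -0.16 beside 0.02 over all genes. Against PNKP1i there were 13 higher and 19 lower (15.7% and 22.9%), with a median of -0.10 beside 0.01. Against DMSO there were 11 higher and 23 lower (13.3% and 27.7%), with a median of -0.10 beside 0.04. Set beside the shares over all genes given above, the pathway lists had a smaller share of higher calls in each of these comparisons. Their share of lower calls was larger against TH10785 and DMSO and close to that of all genes against PNKP1i. This is a description with no test. PNKP1i alone called 0 of 83 by edgeR, DESeq2, limma-voom and limma-trend, beside 0.174% of all genes higher and 0.0231% lower, and 12 of 83 had an unadjusted p under 0.05. TH10785 alone called DHCR7 and ZNF703.

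**Figure D5:**
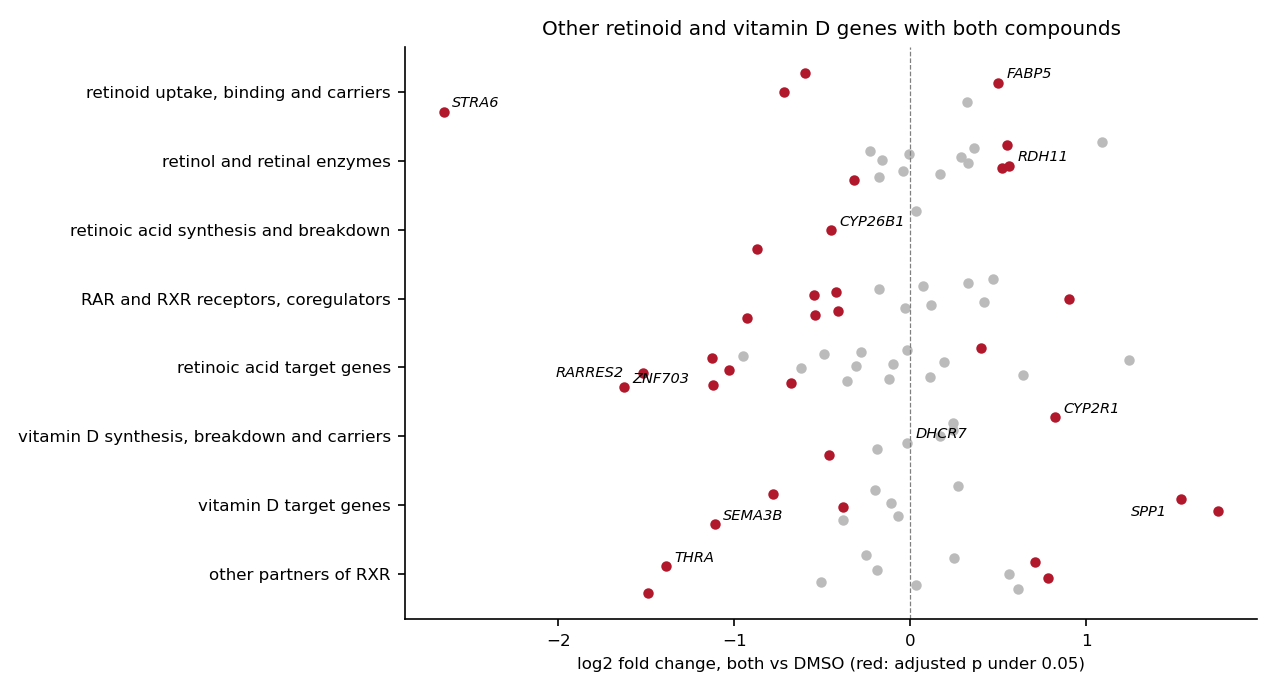
Log2 fold change of both compounds against DMSO (horizontal axis) for the 83 tested pathway genes other than the 9 members, 1 row of points per list, red where the adjusted p was under 0.05. STRA6 is farthest left at -2.65 and SPP1 farthest right at 1.75.

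Among the genes of retinoid uptake and binding, STRA6, the receptor that imports retinol from its carrier in blood, moved most. It measured 3.44, 9.84 and 10.4 CPM with both compounds, 29.2, 29.9 and 39.5 CPM with TH10785, 49.3, 38.9 and 46.5 CPM with PNKP1i, and 49.5, 48.9 and 51.0 CPM with DMSO. The libraries with both compounds lay below all others by a wide margin. Its log2 fold change with both compounds was -2.05 (SE 0.26, adjusted p = 5.83e-05 by edgeR) against TH10785, -2.50 (adjusted p = 2.08e-05) against PNKP1i and -2.65 (adjusted p = 4.14e-06) against DMSO, or -1.69, -2.08 and -2.31 with GC offsets. Without TH10785 replicate 3 the value against TH10785 was -1.90. FABP5, a fatty acid carrier that can also carry retinoic acid, rose by 0.43 against PNKP1i and 0.50 against DMSO. CRABP1, the relative of CRABP2, had 0 CPM in every library.

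Of the 14 tested retinol and retinal enzymes, 2 rose and 2 fell with both compounds against TH10785 (14.3% each). Against DMSO, 3 rose and 1 fell (21.4% and 7.14%). Over all tested genes 22.7% rose and 19.7% fell against TH10785, and 21.3% and 19.7% against DMSO. The counts of this list and those below are small, and nothing is read from them. The retinol dehydrogenases RDH10, RDH11 and RDH14 were the 3 that rose against DMSO, by 0.55, 0.56 and 0.52 on the log2 scale (adjusted p = 0.0245, 0.00252 and 0.0383 by edgeR). With GC offsets RDH11 was 0.28 and still called. With TH10785 alone RDH11 measured 105, 109 and 75.7 CPM, against 68.3, 73.5 and 72.6 CPM with DMSO, and was not called. It was called there at 0.60 without TH10785 replicate 3 (adjusted p = 0.00179 by edgeR) and at 0.51 with GC offsets (adjusted p = 0.00263). For RDH11, both compounds against TH10785 gave -0.02 without that replicate and -0.23 with GC offsets. Of the 3 tested genes of retinoic acid synthesis and breakdown, CYP26B1, which degrades retinoic acid, fell in each comparison of both compounds (-0.37, -0.41 and -0.45 against TH10785, PNKP1i and DMSO), and with GC offsets each of these calls ended (-0.14, -0.11 and -0.15). CYP2S1 fell too, by 0.85 against TH10785, 0.63 against PNKP1i and 0.87 against DMSO. GC offsets left it called at -0.48 against TH10785 and -0.52 against DMSO and ended the call against PNKP1i (-0.20, adjusted p = 0.367 by edgeR). CYP26A1, a gene known for its strong induction by retinoic acid, was at or under 0.214 CPM in every library.

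Of the 13 tested receptors and coregulators, 5 rose and 3 fell against TH10785 (38.5% and 23.1%, beside 22.7% and 19.7% of all genes). The corepressor gene NCOR1 rose (0.68, SE 0.15, adjusted p = 0.0028 by edgeR), and with GC offsets it was 0.43 and still called. PRAME, a repressor of RAR signalling, fell by 0.45, or by 0.27 with GC offsets. Of 20 tested retinoic acid target genes, 4 fell against TH10785 (20%, beside 19.7% of all genes). Against DMSO, 1 rose and 6 fell (5% and 30%, beside 21.3% and 19.7%). RARRES2, which encodes the chemoattractant chemerin, was 0.581, 0.679 and 0.950 CPM with both compounds, 2.15, 2.12 and 2.77 CPM with TH10785, 1.69, 3.01 and 2.72 CPM with PNKP1i, and 3.35, 1.22 and 1.82 CPM with DMSO. It fell by 1.66 against TH10785 (SE 0.37, adjusted p = 0.00249). ZNF703, a transcriptional repressor, was -0.78 against TH10785 and -1.63 against DMSO, and with TH10785 alone it was -0.85 against DMSO (SE 0.13, adjusted p = 0.00237). With GC offsets ZNF703 was -0.38 against TH10785 and still called.

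On the vitamin D side, 2 of 7 tested genes of synthesis and carriers rose and 2 fell against TH10785. That is 28.6% each, beside 22.7% and 19.7% of all genes. CYP2R1, a 25-hydroxylase that takes the first step in activating vitamin D, rose by 0.74 against TH10785, 0.81 against PNKP1i and 0.82 against DMSO (adjusted p = 0.00388, 0.00177 and 0.0019 by edgeR), and with GC offsets none of these 3 calls held (0.21, 0.23 and 0.29). DHCR7, which turns the precursor of vitamin D into cholesterol, measured 125, 156 and 143 CPM with both compounds, 367, 393 and 532 CPM with TH10785, 178, 129 and 150.4 CPM with PNKP1i, and 133, 151 and 148 CPM with DMSO. TH10785 alone stood above the other 3 groups, by 1.58 against DMSO (SE 0.15, adjusted p = 1.86e-05), and both compounds were -1.61 against TH10785 (adjusted p = 3.66e-06).

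Of the 10 tested vitamin D target genes other than CYP24A1, 2 rose and 3 fell against TH10785, and likewise against DMSO. These shares of 20% and 30% stand beside 22.7% and 19.7% of all genes against TH10785, and 21.3% and 19.7% against DMSO. SPP1, which encodes the bone matrix protein osteopontin, measured 14.2, 6.25 and 11.6 CPM with both compounds, 2.33, 2.64 and 1.39 CPM with TH10785, 2.88, 6.14 and 3.26 CPM with PNKP1i, and 3.89, 2.38 and 3.26 CPM with DMSO. It was higher with both compounds by 2.33 (SE 0.35, adjusted p = 0.000161 by edgeR) against TH10785 and 1.75 (SE 0.33, adjusted p = 0.000732) against DMSO, the opposite sign to CYP24A1. LRP5, a Wnt coreceptor, fell by 0.77 against TH10785 and 0.78 against DMSO, or by 0.42 and 0.33 with GC offsets. Among other partners of RXR, the thyroid hormone receptor gene THRA fell by 1.26 against TH10785 and 1.39 against DMSO (adjusted p = 0.000438 and 0.000141). Without TH10785 replicate 3 the values against TH10785 were 2.10 for SPP1, -1.42 for DHCR7, -1.52 for RARRES2, 0.49 for NCOR1 and -1.13 for THRA, each still called.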

How the data were processed

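The 12 RNA libraries fall into 4 groups of 3. Per the submitters' processing notes, the tools were DESeq2 1.30.1, HTSeq 0.6.1 and HISAT2 2.0.5, with hg38 and GRCh38 named as builds. The annotation counted and the use of strand are not given in the sources used here, so reads of genes that overlap on opposite strands may be mixed. The authors deposited raw counts for 58735 genes, whose identifiers are those of GENCODE release 29, and a normalized signal for 35754 genes. In the deposited normalized signal each value is the raw count over 1 size factor per library. The pairing of library names to samples came from their titles, and no library pair held identical counts (0 pairs).

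Raw counts were tested with edgeR 4.0.16 (R 4.3.3): 17290 genes kept by filterByExpr (a count of at least 10, a total of at least 15), TMM scaling, a mean per group over the 12 libraries, robust quasi-likelihood F tests, two-sided, and Benjamini-Hochberg adjustment over all tested genes within a comparison, with calls at an adjusted p under 0.05. CPM were computed here from the TMM-scaled library sizes. The biological coefficient of variation was 15.4%. GC content and length were known for 17282 tested genes and taken from the longest transcript.

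The members and the gene lists were chosen with earlier results of these data known. Of the lists, the text names all 9 members and, in each comparison, genes from the up to 3 called with the smallest p in each list; RXRB, RXRG, CRABP1 and CYP26A1, named as relatives or as low, fall outside that rule. A few genes named by it are not reported here. Alternatives were upper-quartile and RLE scaling, limma-voom, DESeq2 1.42.0 and limma-trend (limma 3.58.1; log2 of the normalized signal plus 1), no filter on low counts, a filter at 1 CPM in 3 libraries, a fit of the compared groups alone, the replicate number as a block, per-library offsets for GC content and length (splines with 5 degrees of freedom), and each library left out in turn.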

Additional observations from a re-analysis of the deposited data

Results flagged for a closer look

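RARB: relative to the mean of their comparison group, all 3 libraries of PNKP1i alone lay above DMSO, and all 3 libraries of both compounds lay below TH10785. The difference between these effects was -2.11 on the log2 scale of mean CPM, at counts of 0 to 18 per library. The difference was not tested.

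VDR: relative to the mean of their comparison group, all 3 libraries of both compounds lay above PNKP1i, and all 3 libraries of TH10785 alone lay below DMSO. The difference between these effects was 0.69 (SE 0.25) on the log2 scale, and 0.47 without replicate 1 of both compounds. The difference was not tested, since it holds the contrast by which the genes were chosen.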

How the results depend on the processing

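The count of members called was 5 in every alternative for both compounds against TH10785, 4 to 6 against PNKP1i, 5 to 6 against DMSO, and 0 for TH10785 against DMSO. CRABP2, RARG, RXRA and CYP24A1 kept their calls in all 22 alternatives of the 3 comparisons of both compounds, and DHRS3 in those against TH10785 and DMSO. With GC offsets RARA turned to 0.16 against TH10785 and 0.06 against PNKP1i, and VDR to 0.16 against DMSO. Leaving out 1 library, values near 0 changed sign: VDR for both compounds against DMSO ran from -0.26 to 0.06, and CRABP2 for TH10785 against DMSO from -0.24 to 0.04. The cause was not tested.

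Of the pathway genes, TH10785 against DMSO called 2, but 4 with DESeq2, 5 with no filter on low counts and 4 with GC offsets, and 2 to 4 with 1 library left out (4 without replicate 1 of both compounds). PNKP1i against DMSO called 0, but 6 in a fit of the compared groups alone and 1 with GC offsets, and 0 to 1 with 1 library left out (1 without TH10785 replicate 3). Over all genes, TH10785 against DMSO called 97 as reported, 315 with DESeq2, 513 with no filter, 285 with GC offsets and 43 to 180 with 1 library left out. PNKP1i against DMSO called 34 as reported, 116 with DESeq2, 189 with no filter, 1144 in the compared groups alone, 91 with GC offsets and 6 to 297 with 1 library left out.

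Same-numbered replicates did not deviate together (correlations from -0.255 to 0.125), so the numbers are not taken to pair samples. With the replicate block the members called were 5, 5, 6 and 0 in the comparisons of both compounds against TH10785, PNKP1i and DMSO and of TH10785 against DMSO. The pathway genes called with it were 30, 31, 31, 2 and 0, the last for PNKP1i against DMSO, and all genes called for the single compounds were 62 (TH10785) and 15 (PNKP1i). Depth limits RARB and ALDH1A3, which had 103 and 18 counts over the 12 libraries.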
